A study of Mus musculus with 24 samples.

Results

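The duodenum of Hfe knockout mice (Hfe-/-, here KO) of the D2 strain was compared with the duodenum of Hfe knockout mice of the B6 strain. The members were the 6 arrays that the labels name as knockout duodenum, 3 of D2 KO and 3 of B6 KO, of 24 arrays in the series. D2 stands for DBA/2 and B6 for C57BL/6, and all mice were males 7 weeks old. The 6 wild-type (WT) duodenum arrays, 3 of each strain, gave the strain differences that were present without the knockout, and the knockout and wild-type comparisons shared no arrays. Each array held RNA of 1 mouse. Knockouts of both strains came from the authors' own breeding, whereas wild types came from a supplier, so that origin and genotype cannot be told apart, but both sides of the knockout comparison had the same origin.

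Hfe is a major histocompatibility complex (MHC) class I-like protein whose loss causes iron overload through low production of the liver hormone hepcidin. The duodenum is the main site of iron absorption, where the reductase Cybrd1 and the transporter Slc11a2 bring iron into the enterocyte and ferroportin (Slc40a1), helped by the oxidase hephaestin (Heph), releases it to the blood. Inbred strains of mice differ in how much iron they accumulate after loss of Hfe, which is the question behind the strain comparison. The deposited value of a probe set, the group of probes that reads 1 transcript, is a MAS5 signal scaled by the authors to the same mean on every array. Differences below are log2 signal in D2 minus log2 signal in B6, so that 1 is a doubling, with the standard error of the limma fit and a Benjamini-Hochberg adjusted p over all probe sets kept. Strain differences with an adjusted p of 0.01 or less were called. Signals are listed in the order of replicates 1, 2 and 3. In tissue RNA, fewer cells of a type and less RNA per cell cannot be told apart, and a sequence difference between the strains under a probe cannot be told apart from a difference in transcript level.

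Summed signals of 32 brush border genes lay between 62330 and 80416 on all 12 duodenum arrays, as the tissue label implies, and the Hfe signal was lower on all 6 knockout arrays than on all 6 wild-type arrays. Genes of other tissues were uneven. The summed signal of 27 pancreatic acinar enzymes was 93181, 117871 and 172821 in B6 KO and 182013, 28129 and 29429 in D2 KO, so that D2 KO 2 and D2 KO 3 stood apart from D2 KO 1. Between wild types this sum was 42904 to 114610 in B6 and 67824 to 127648 in D2. The summed signal of 9 stomach and Brunner gland genes ranged from 908 to 27797 and was uneven within every group. It was 27797, 1730 and 26206 in B6 KO and 3657, 1449 and 15068 in D2 KO. Of the 9 genes, 8 were lower in D2 KO and 9 in D2 WT, with median log2 differences of -2.12 and -2.49. Over all genes 47.1% and 48.7% were lower, and 0 of the 9 were called in either comparison. By the gaps between their hybridization times the arrays fell into 2 runs, and 2 fluidics stations were used. B6 KO 1 was in the first run, and B6 KO 2, B6 KO 3 and all D2 KO arrays were in the second. All 3 D2 KO arrays and B6 KO 1 were processed on 1 station and B6 KO 2 and B6 KO 3 on the other. All B6 WT arrays were in the first run and all D2 WT arrays in the second.

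Between the knockouts 1025 probe sets differed (3.66% of those kept), 503 with higher (1.79%) and 522 with lower signal in D2 (1.86%), and 649 of them at least 2-fold. Leaving out D2 KO 3 lowered the number to 648, leaving out D2 KO 2 to 650 and leaving out B6 KO 3 to 665. Between the wild types 946 differed (3.37%), 359 higher (1.28%) and 587 lower (2.09%), or 616 in all without B6 WT 3. The overlap was 597 probe sets, which is 58.2% of the knockout calls and 63.1% of the wild-type calls, all with the same sign. When each comparison was fitted on its own 6 arrays, 405 were shared. Strain and run were confounded in the wild types. With run as a block the wild-type calls fell to 104 and the shared ones to 101, beside 751 between the knockouts. Only B6 KO had arrays in both runs, so the run effect of that fit rested on B6 KO 1 against B6 KO 2 and B6 KO 3. Of the 1025 probe sets, 985 (96.1%) had the same sign between the wild types, against 58.7% of all probe sets. When each gene was represented by its probe set of highest mean signal, 492 of 12999 genes differed between the knockouts (3.78%), 253 higher (1.95%) and 239 lower in D2 (1.84%), and 433 between the wild types (3.33%). The 270 genes called in both had median absolute differences of 1.24 between the knockouts and 1.26 between the wild types.

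The other 222 genes were called between the knockouts and not between the wild types, 140 higher and 82 lower in D2, and most of these differed in the same direction between the wild types. In 151 of them the wild types differed in the same direction at an unadjusted p under 0.05, a level that 18.1% of all genes passed. In 68 the wild types did not pass that level, 48 higher and 20 lower in D2 KO. In 3 they differed in the opposite direction, namely Akr1c19, Efna1 and Pdxk. The median absolute difference of the 222 genes was 0.89 between the knockouts and 0.45 between the wild types. The test of the difference itself, the interaction of strain and genotype, called 4 probe sets at an adjusted p of 0.1 or less (0.0143%), 2 of them called between the knockouts and 2 between the wild types, while 2928 (10.4%) had an unadjusted p under 0.05. This count rested on single arrays, with 349 without D2 KO 1 and 2 without B6 KO 3 or B6 WT 3. The count of knockout calls was 497 with the fluidics station as a block and 638 with the acinar signal as a covariate, and 0 of the 1025 probe sets changed sign in either fit.

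**Figure D1:**
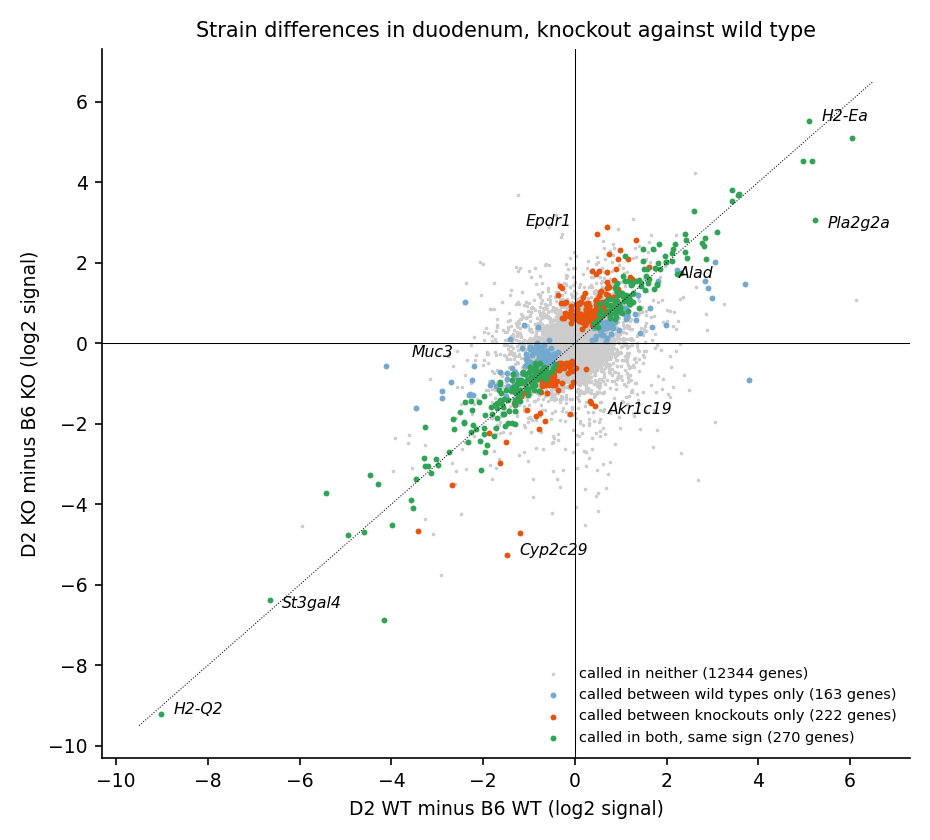
Each point is a gene, with the log2 difference between D2 WT and B6 WT on the x axis and between D2 KO and B6 KO on the y axis, colored by where it was called. The 270 genes called in both comparisons (green) lie along the diagonal, and those called in 1 comparison lie closer to its axis.

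Several of the largest differences lay in genes of the MHC, whose B6 and D2 haplotypes differ. H2-Ea, the alpha chain of the class II molecule E, which mice of the B6 haplotype do not produce, had signals of 8.64, 11.5 and 9.79 in B6 KO and 437, 452 and 472 in D2 KO. The groups were far apart, and since the B6 signals lay under the lowest level kept, 20.06, the signal in D2 KO was at least 22.6-fold higher (log2 difference 5.52, standard error 0.22, adjusted p = 2.39e-08). The wild types differed by 5.10. The class I gene H2-Q2 had signals of 1097, 1372 and 1156 in B6 KO and 11.4, 0.125 and 5.95 in D2 KO, at least 60.2-fold lower in D2 (adjusted p = 0.000654), and the wild types were as far apart. H2-T3, which encodes the thymus leukemia antigen of the intestinal epithelium, was higher in D2 KO by 2.72 and in D2 WT by 2.41. Of 23 measured genes of the MHC class I and II list, 4 were called higher and 2 lower in D2 KO, with 1.95% higher and 1.84% lower among all genes. Among the 4 was H2-Ke6, a hydroxysteroid dehydrogenase encoded in the MHC region, with a difference of 1.02. H2-K1, a classical class I gene, had signals of 5001, 5952 and 5656 in B6 KO and 3046, 2589 and 2466 in D2 KO, a difference of -1.04 (standard error 0.13, adjusted p = 0.000305). Between the wild types H2-K1 differed by -0.44 (adjusted p = 0.0758), and the interaction was not called (adjusted p = 0.35).

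Outside the MHC, and among shared genes whose higher group averaged 100 or more, the largest difference was in St3gal4, a sialyltransferase. Its signals were 2228, 3250 and 2663 in B6 KO and 39.8, 33.2 and 25.5 in D2 KO, a difference of -6.37 (standard error 0.27, adjusted p = 3.18e-08), and -6.65 between the wild types. In liver of the same mice the St3gal4 difference was -0.10 (adjusted p = 0.722). Ang, a secreted ribonuclease, had signals of 831, 958 and 860 in B6 KO and 53.3, 26.7 and 23.9 in D2 KO (log2 difference -4.77, adjusted p = 6.99e-07), and -6.07 in liver. Rpgrip1, a protein of the photoreceptor cilium, had signals of 1234, 1296 and 1051 in B6 KO and 113, 64.4 and 69.1 in D2 KO, a difference of -3.90. Genes with higher signal in D2 included Ap1s3, a small subunit of the AP-1 sorting complex. Its signals were 70.3, 43.8 and 71.1 in B6 KO and 723, 880 and 921 in D2 KO (log2 difference 3.79, standard error 0.21, adjusted p = 3.16e-07). Cap1, which regulates actin filaments, rose from 194, 216 and 156 in B6 KO to 953, 1091 and 1121 in D2 KO (log2 difference 2.50, adjusted p = 7.21e-06) and differed by 2.77 between the wild types. For none of these genes did the arrays of the groups overlap in either genotype, which held for 26.3% of all genes between the knockouts and 22.8% between the wild types. Of 492 genes called in duodenum between the knockouts, 156 were also called with the same sign in liver, where 698 of 12999 genes were called, and 9 with the opposite sign. Of 21 measured genes that the study lists as regulated in cis between the strains, 2 were higher and 6 lower in D2 KO. The shares of all genes were 1.95% and 1.84%. Scpep1, a serine carboxypeptidase, was among the 8 and had a difference of 2.45. The study had chosen the genes of this list on arrays of this series, so their counts are no independent evidence. Of the 8, 6 were also called between the wild types.

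Of 10 measured genes with a known D2 or B6 allele difference, 6 were called higher and 1 lower in D2 KO, beside 1.95% and 1.84% of all genes. These genes were listed because the strains were known to differ in them, so their counts are no independent evidence. Alad, the heme synthesis enzyme whose gene is duplicated in DBA/2 mice, had signals of 229, 282 and 300 in B6 KO and 1091, 1082 and 1105 in D2 KO (log2 difference 2.02, standard error 0.12, adjusted p = 3.86e-07). The wild types gave almost the same value, 2.00. Glo1, a detoxifying enzyme that is also duplicated in DBA/2, was higher by 1.04 between the knockouts and by 1.07 between the wild types. Nnt, the mitochondrial transhydrogenase that is truncated in the C57BL/6J substrain, had signals of 134, 168 and 150 in B6 KO and 622, 796 and 892 in D2 KO (log2 difference 2.34, adjusted p = 1.11e-05), against 1.48 between the wild types. Pla2g2a, a secreted phospholipase inactivated in B6, was the least even of them. Its signals were 112, 83.4 and 83.5 in B6 KO and 3171, 491 and 290 in D2 KO (log2 difference 3.06, standard error 0.64, adjusted p = 0.00987). The call was lost when any of 10 of the 12 arrays was left out, with an adjusted p of up to 0.0393 without B6 KO 3. Of the 24 largest shared genes, Pla2g2a alone lost its call when single arrays were left out, and 11 of the 24 remained with both run and station as blocks.

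**Figure D2:**
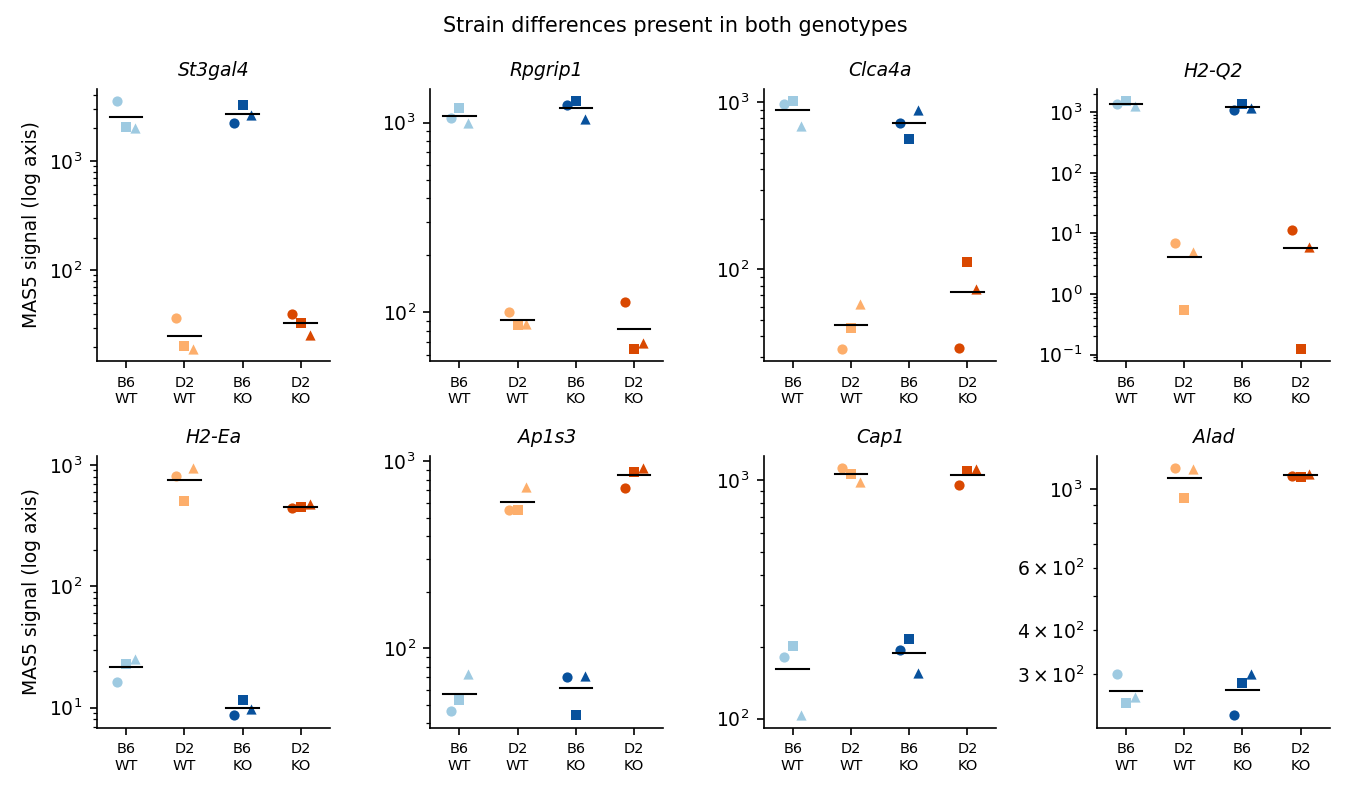
MAS5 signal (log axis) of 8 genes on each of the 12 duodenum arrays, by group, with circles, squares and triangles for replicates 1, 2 and 3 and bars for group means. In every panel the B6 and D2 arrays lie apart in both genotypes, as for St3gal4 with 25.5 to 39.8 in D2 KO and 2228 to 3250 in B6 KO.

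Of 21 genes measured from the list of goblet cells and mucins, 4 were lower and 0 higher in D2 KO, against 1.84% and 1.95% of all genes, and their median difference was -0.40, with 0.02 over all genes. Clca4a, a calcium-activated chloride channel regulator, had signals of 756, 600 and 893 in B6 KO and 33.8, 111 and 76.5 in D2 KO (log2 difference -3.49, standard error 0.35, adjusted p = 4.21e-05). Muc4, a membrane mucin, fell by 2.31 on the log2 scale and the chemokine Ccl9, a member of that list, fell by 2.06, and all 3 genes were also called between the wild types. Spink4, the last, had a difference of -0.70 (adjusted p = 0.00815), was not called between the wild types (-0.06), and lost its call when any of 10 arrays was left out, with an adjusted p of up to 0.0415 without D2 KO 3. Muc3, a brush border mucin, was not called between the knockouts, with signals of 5515, 5725 and 5229 in B6 KO and 2294, 5057 and 4473 in D2 KO (adjusted p = 0.262), whereas between the wild types the difference was -2.21 (adjusted p = 0.000194, interaction adjusted p = 0.232).

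Of 23 fat and cholesterol absorption genes, 1 was higher and 2 were lower in D2 KO, beside 3.78% of all genes called. The fatty acid receptor Cd36 had signals of 182, 366 and 187 in B6 KO and 816, 886 and 835 in D2 KO (log2 difference 1.87, standard error 0.27, adjusted p = 0.000835), and 1.75 between the wild types. Mogat2, which resynthesizes triglyceride in enterocytes, fell by 0.86 on the log2 scale and Dgat2, the next enzyme of that route, fell by 0.82, without an overlap of arrays in either gene. Between the wild types Mogat2 differed by -0.93 and was called, and Dgat2 by -0.45 (adjusted p = 0.0632). Among 32 brush border enzymes and transporters 1 was higher and 1 lower in D2 KO, beside 3.78% of all genes called. The higher one was Mep1a, a brush border metalloprotease, with a difference of 0.79 (adjusted p = 0.00467) and 0.46 between the wild types, whose call was lost without B6 KO 2, B6 KO 3 or any D2 KO array (adjusted p of up to 0.0254). The lower one, Slc2a2, the basolateral glucose transporter GLUT2, had signals of 2778, 3406 and 2898 in B6 KO and 1194, 1596 and 1567 in D2 KO (log2 difference -1.07, standard error 0.18, adjusted p = 0.002). Its wild types differed by -0.72 (adjusted p = 0.0266), and the call between the knockouts was lost without B6 KO 2 (adjusted p = 0.011). Among 56 cytochrome P450 and other phase I and II enzymes, 6 were higher and 2 lower in D2 KO, with 1.95% and 1.84% among all genes. Fmo2, a flavin-containing monooxygenase, had signals of 58.2, 68.4 and 64.3 in B6 KO and 190, 214 and 206 in D2 KO (log2 difference 1.68, adjusted p = 5.81e-06), and 1.55 between the wild types. The glutathione transferase Gsta2 was higher by 1.85 in the knockouts and 1.86 in the wild types, but its knockout call was lost without B6 KO 1, B6 KO 2, D2 KO 2 or D2 KO 3, with an adjusted p of up to 0.0176.

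None of the 15 measured genes of iron absorption and export was called between the knockouts, and none of 10 genes of the transferrin cycle, ferritin and iron regulatory proteins. At an unadjusted p under 0.05 limma gave 3 genes of each list, with 21.7% of all genes. Their median differences were 0.08 and -0.07, beside 0.02 over all genes. Both uptake genes had high values in D2 KO nevertheless. Cybrd1 had signals of 1052, 222 and 874 in B6 KO and 1810, 2227 and 3022 in D2 KO (log2 difference 1.97, standard error 0.50, adjusted p = 0.0295). In the wild types its signals were 216, 571 and 549 in B6 and 221, 326 and 253 in D2, a difference of -0.63. The D2 KO arrays were the 3 highest of all 12, but B6 KO 2 lay far below the other B6 KO arrays, and the interaction of 2.60 was not called (adjusted p = 0.306). A second Cybrd1 probe set differed by 1.73 (adjusted p = 0.0206).

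Slc11a2 had signals of 341, 121 and 321 in B6 KO and 602, 1246 and 1404 in D2 KO, a difference of 2.11 that fell just short of the call (standard error 0.44, adjusted p = 0.0102). Leaving out D2 KO 1 gave an adjusted p of 0.00467, leaving out D2 WT 3 gave 0.00554, and leaving out other arrays gave up to 0.0539. Of its 3 other probe sets, 1 was called at 2.55 (adjusted p = 0.0036), with 90.1, 31.2 and 105 in B6 KO and 240, 468 and 531 in D2 KO, whereas another differed by -0.10. In the wild types Slc11a2 was 147, 203 and 235 in B6 and 584, 661 and 255 in D2, a difference of 1.27 (adjusted p = 0.129), so that its direction was the same in both genotypes. As for Cybrd1, B6 KO 2 was the lowest B6 KO array. B6 KO 2 was also the lowest B6 KO array in the summed stomach and Brunner gland signal, and a link was not tested. The export genes gave smaller values, with -0.31 for Slc40a1 (adjusted p = 0.104) and -0.02 for Heph. The transferrin receptor Tfrc, which takes up iron from the blood side, was 743, 641 and 639 in B6 KO and 483, 399 and 393 in D2 KO, a difference of -0.67 that did not pass (adjusted p = 0.0456). Ferritin heavy chain (Fth1) differed by -0.09. With the acinar signal as a covariate the adjusted p was 0.166 for Cybrd1, 0.0777 for Slc11a2 and 0.167 for Tfrc. The part of the acinar RNA in these values was not tested further.

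Both genes of zinc handling that were called between the knockouts were higher in D2 KO and neither was called between the wild types. Metallothionein 2 (Mt2), a protein that binds zinc and copper, had signals of 1409, 1060 and 1115 in B6 KO and 2648, 2003 and 2685 in D2 KO (log2 difference 1.03, standard error 0.20, adjusted p = 0.00563). In the wild types they were 2294, 1226 and 1782 in B6 and 1593, 1578 and 1313 in D2, with overlapping arrays and a difference of -0.20, and the interaction was not called (adjusted p = 0.227). The call was lost without B6 KO 2, B6 KO 3, B6 WT 3, D2 KO 1 or D2 KO 3, with an adjusted p of up to 0.0321. Mt1, its neighbor, differed by 0.55 (adjusted p = 0.101). The zinc importer Slc39a4 had signals of 772, 571 and 706 in B6 KO and 1031, 1084 and 1292 in D2 KO (log2 difference 0.74, standard error 0.12, adjusted p = 0.00222), and 0.26 between the wild types. Its call was lost without D2 KO 3 (adjusted p = 0.0146). With the acinar signal as a covariate neither was called (adjusted p = 0.0208 for Mt2 and 0.0209 for Slc39a4). These 2 were the only calls among 20 genes of zinc, copper and vitamin C handling, beside 3.78% of all genes.

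The promoters of Mt2, Mt1 and Cybrd1 are shown because they hold matches to the short cores of elements through which metals and low oxygen act on genes. Whether the marked letters act on these 3 genes was not tested. The sequences are the 250 bases before each start that RefSeq gives on GRCm38.p6, plus strand. Capitals mark metal response element cores (TGCACNC or TGCGCNC, on either strand) in Mt2, at chr8:94172368-94172617, and in Mt1, at chr8:94178839-94179088. In Cybrd1, at chr2:71117804-71118053, they mark the hypoxia response element core (ACGTG or GCGTG, on either strand).
Mt2: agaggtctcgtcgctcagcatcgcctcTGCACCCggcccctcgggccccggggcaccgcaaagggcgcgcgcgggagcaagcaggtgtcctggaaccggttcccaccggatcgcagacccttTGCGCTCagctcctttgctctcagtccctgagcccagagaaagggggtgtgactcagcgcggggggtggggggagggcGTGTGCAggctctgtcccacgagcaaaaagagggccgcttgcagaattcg
Mt1: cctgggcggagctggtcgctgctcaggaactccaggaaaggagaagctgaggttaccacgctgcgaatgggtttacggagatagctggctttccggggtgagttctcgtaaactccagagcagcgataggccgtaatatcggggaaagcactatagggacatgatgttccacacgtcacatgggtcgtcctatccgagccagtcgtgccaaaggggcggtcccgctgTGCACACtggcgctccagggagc
Cybrd1: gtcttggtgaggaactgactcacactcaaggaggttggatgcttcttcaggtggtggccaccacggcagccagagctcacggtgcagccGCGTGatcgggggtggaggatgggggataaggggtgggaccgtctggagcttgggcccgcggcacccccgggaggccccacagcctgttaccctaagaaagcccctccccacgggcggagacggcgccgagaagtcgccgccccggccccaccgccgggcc
In the 250 bases before the annotated start, Mt2 held 3 metal response element cores and Mt1 held 1. Of 32851 promoters of this length 21.4% held at least 1 such core and 1.26% held 3 or more. The hypoxia core, of which Cybrd1 held 1, occurred in 38.6%. These matches describe the letters alone.

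**Figure D3:**
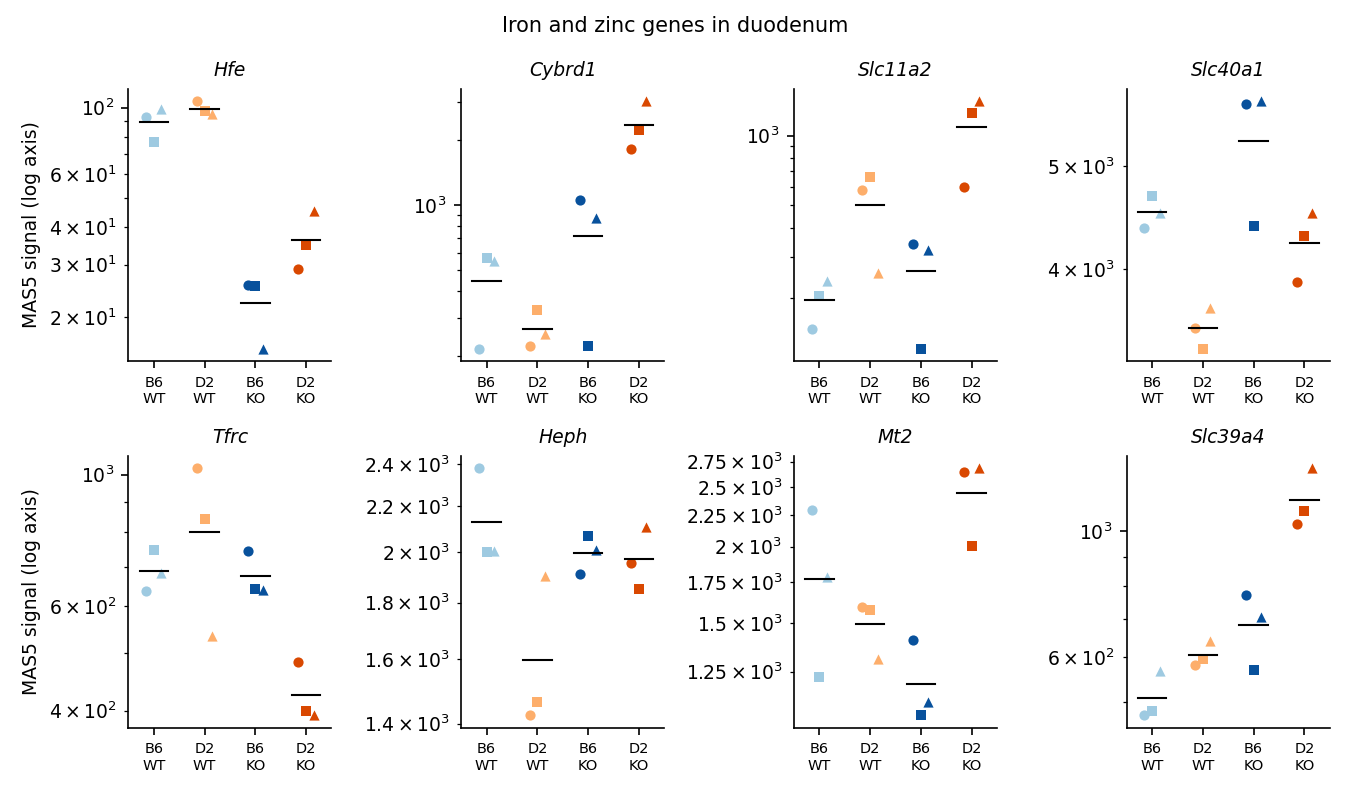
MAS5 signal (log axis) of Hfe and 7 iron and zinc genes on each of the 12 duodenum arrays, by group, with circles, squares and triangles for replicates 1, 2 and 3 and bars for group means. The D2 KO arrays lie above the B6 KO arrays for Cybrd1, Slc11a2, Mt2 and Slc39a4 and below them for Tfrc, with B6 KO 2 the lowest B6 KO array for Cybrd1 (222) and Slc11a2 (121).

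Among genes called between the knockouts and not between the wild types, Akr1c19, an aldo-keto reductase, was the only named gene with a called interaction. Its signals were 1195, 1779 and 1556 in B6 KO and 423, 558 and 546 in D2 KO, a difference of -1.56 (standard error 0.16, adjusted p = 4.73e-05). In the wild types they were 1847, 1596 and 1371 in B6 and 2323, 1902 and 2267 in D2, a difference of 0.44 (adjusted p = 0.15). Thus D2 KO stood below the 3 other groups, and the interaction was -2.00 (standard error 0.23, adjusted p = 0.0109). It was called whichever array was left out, and missed the call with run (adjusted p = 0.122) or station (0.398) as a block. The call was also missed with both blocks (0.188) and with no trend (0.127). The liver of the same knockout mice differed by -1.92 (adjusted p = 6.5e-08). Epdr1, an ependymin-related protein, had signals of 40.5, 22.2 and 29.3 in B6 KO, 121, 258 and 238 in D2 KO, 18.7, 22.1 and 28.2 in B6 WT and 32.2, 31 and 31.1 in D2 WT. The difference of 2.71 between the knockouts (standard error 0.29, adjusted p = 7.68e-05) was found by all 3 of its probe sets, while the interaction of 2.24 was not called (adjusted p = 0.165).

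Asb13, a substrate receptor of a ubiquitin ligase, had signals of 167, 188 and 158 in B6 KO and 322, 353 and 352 in D2 KO (log2 difference 1.01, adjusted p = 0.00087) and between 145 and 220 on all wild-type arrays. Another of its probe sets was called at 1.26 (adjusted p = 0.00227), and a further one was not, at 0.53 (adjusted p = 0.117). The study places Asb13 on chromosome 13, as Hfe is, outside the window of 20 Mb used below. It lies close to the edge of that window, since the study places it near Net1, the outermost gene inside on that side. Plaat3, a phospholipase, had signals of 620, 859 and 621 in B6 KO and 234, 187 and 195 in D2 KO (log2 difference -1.76, adjusted p = 8.8e-05), with a difference of -0.10 between the wild types. In liver the sign was opposite, 1.21. Adipor2, an adiponectin receptor, had signals of 912, 1000 and 1204 in B6 KO and 2065, 1993 and 2075 in D2 KO (log2 difference 0.99, adjusted p = 9.54e-05) and 0.09 between the wild types. In each of Asb13, Plaat3 and Adipor2 D2 KO stood apart from the other groups, and in each the interaction missed the call at an adjusted p of 0.149. All 3 kept the knockout call when any single array was left out. These 3 genes and Epdr1 were chosen after their values were seen.

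Cyp2c29, a cytochrome P450 of drug metabolism, had a wide spread between arrays. Its signals were 958, 3263 and 4736 in B6 KO, 268, 29.6 and 32.9 in D2 KO, 2960, 2812 and 3018 in B6 WT and 810, 1311 and 1073 in D2 WT. D2 was below B6 in both genotypes. The knockouts differed by -5.26 (standard error 0.71, adjusted p = 0.000425) and the wild types by -1.49 (adjusted p = 0.293), and the interaction was not called (adjusted p = 0.306). D2 KO 1, the array of highest acinar signal, was the highest D2 KO array, and with the acinar signal as a covariate Cyp2c29 was still called (adjusted p = 0.000538). Efna1, an ephrin ligand, had a difference of 0.63 (adjusted p = 0.00368) and Pdxk, pyridoxal kinase, of 0.62 (adjusted p = 0.00256), with -0.28 and -0.23 between the wild types. Both lost their call without single arrays, Efna1 without B6 KO 1, B6 KO 2 or D2 KO 3 (adjusted p of up to 0.0241) and Pdxk without B6 KO 3, D2 KO 2 or D2 KO 3 (up to 0.0161).

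The converse pattern, a difference between the wild types that was small between the knockouts, was seen in several genes near Hfe on chromosome 13. Stard3nl, an endosomal protein, had signals of 252, 185 and 197 in B6 KO, 255, 294 and 289 in D2 KO, 272, 246 and 234 in B6 WT and 131, 148 and 150 in D2 WT. The difference was 0.41 between the knockouts (adjusted p = 0.0699) and -0.81 between the wild types (adjusted p = 0.00134), and their difference, the interaction, was 1.22 (adjusted p = 0.0881). Only without B6 KO 1, D2 KO 1, D2 WT 2 or D2 WT 3 was it still called, and without D2 KO 3 its adjusted p was 0.353. It also missed the call with run (0.387), station (0.985) or replicate number (0.236) as a block, with the acinar covariate (0.469), after quantile normalization (0.103) and with no trend (0.221). Pxdc1 had signals of 304, 400 and 377 in B6 KO, 359, 428 and 363 in D2 KO, 506, 269 and 338 in B6 WT and 139, 128 and 136 in D2 WT, so that D2 WT alone was low (interaction 1.51, adjusted p = 0.149). Eci3, an enoyl-CoA isomerase, and Nrn1, a neuritin, made up the 4 wild-type calls of this region. A probe set annotated to Atxn1, the ataxin-1 gene, was 254, 197 and 212 in B6 KO, 211, 227 and 250 in D2 KO, 261, 189 and 197 in B6 WT and 45.7, 39.2 and 47.1 in D2 WT. Its interaction of 2.34 (standard error 0.21, adjusted p = 0.00146) was called under each left-out array but not with station as a block (adjusted p = 0.313), whereas the Atxn1 probe set of highest mean signal had 0.72 (adjusted p = 0.326).

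Within 20 Mb of Hfe 143 genes were measured. Of these 4 were called between the knockouts (2.8%, against 3.79% of 12810 genes elsewhere), namely Akr1c14, Akr1c19, Epdr1 and H1f2, and 4 between the wild types (2.8%, against 3.33%). No gene was called in both, beside 268 of the 12810 genes elsewhere, a share that would give few among 143 genes. The interaction had an unadjusted p under 0.05 in 28 of the 143 (19.6%), in 51 of the 340 other genes of chromosome 13 and in 10.3% of genes elsewhere. Akr1c14 and H1f2 lost their knockout call without single arrays, Akr1c14 without any of 6 arrays (adjusted p of up to 0.0366, without D2 KO 2) and H1f2 without B6 KO 3 (0.0115). The histories of the 2 knockout lines around the gene were not analysed here, and their part in these values was not tested. Over the autosomes and X, the share of genes called between the knockouts ran from 1.06% on X to 5.85% on chromosome 4.

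**Figure D4:**
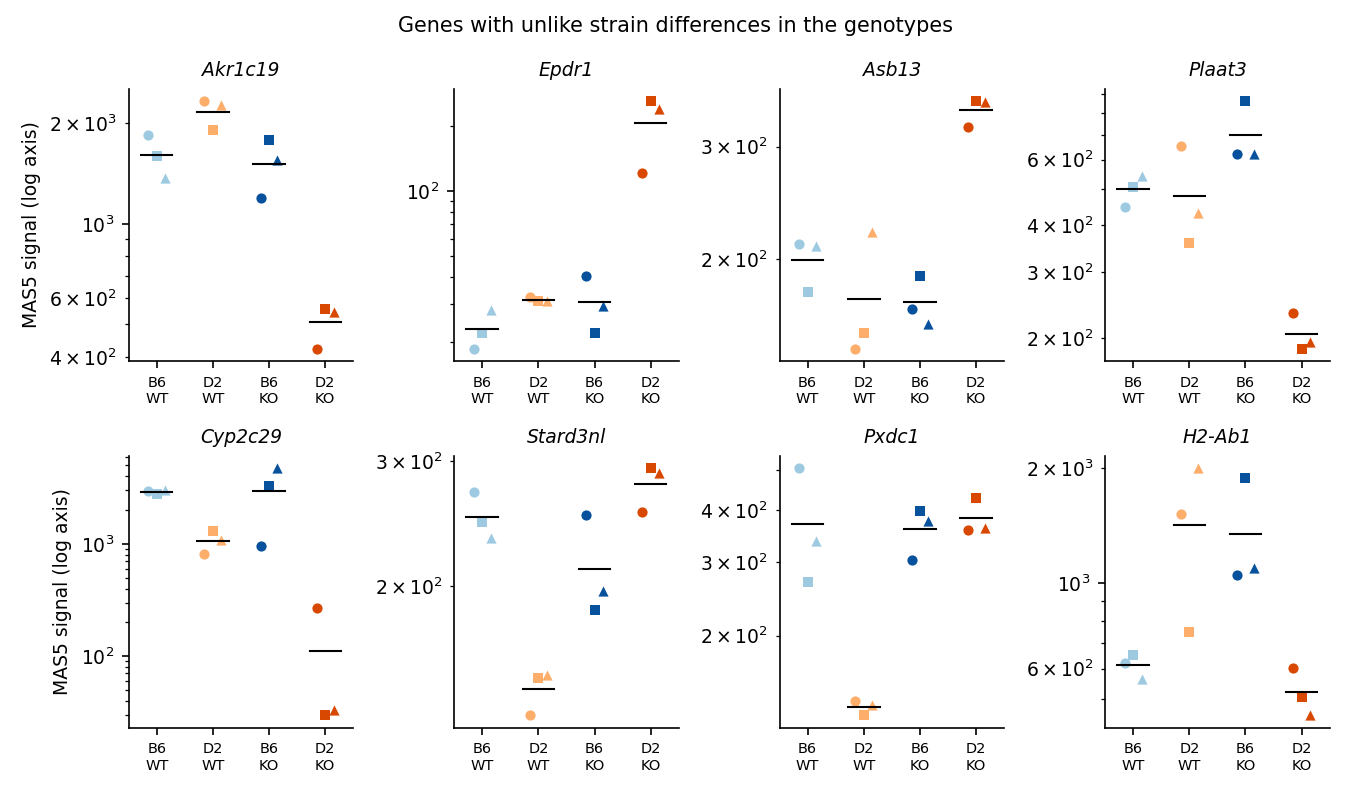
MAS5 signal (log axis) of 8 genes on each of the 12 duodenum arrays, by group, with circles, squares and triangles for replicates 1, 2 and 3 and bars for group means. D2 KO stands below the other groups for Akr1c19, Plaat3 and Cyp2c29 and above them for Epdr1 and Asb13, D2 WT stands below the others for Stard3nl and Pxdc1, and for H2-Ab1 the strains are in opposite order in the genotypes.

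Of 8 measured class II genes of antigen presentation, 5 were lower in D2 KO and higher in D2 WT (Cd74, H2-Aa, H2-Ab1, H2-DMa and H2-Eb1). By the probe sets that stand for the genes, 0 of the 5 were called in either comparison. H2-Ea and H2-DMb2 were called higher in D2 KO and were also higher in D2 WT, and H2-Oa had negative values in both. H2-DMb2, a chain of the peptide editor DM, differed by 1.14 (adjusted p = 0.00856), a call that was lost without any of 9 arrays (adjusted p of up to 0.0374, without B6 KO 1), and by 0.88 between the wild types. H2-Ab1, the beta chain of the class II molecule A, had signals of 1055, 1880 and 1096 in B6 KO and 602, 505 and 453 in D2 KO, a difference of -1.33 (standard error 0.30, adjusted p = 0.0149). Between the wild types the order was reversed, 620, 651 and 564 in B6 and 1516, 749 and 1999 in D2 (log2 difference 1.11, adjusted p = 0.0433). The groups did not overlap in either genotype, and for this probe set neither comparison nor the interaction (-2.43, adjusted p = 0.149) was called. Cd74, the invariant chain that guides class II molecules, behaved alike, with -1.02 between the knockouts (adjusted p = 0.0186) and 0.89 between the wild types. Other probe sets of H2-Aa and H2-Ab1 were divided. An H2-Ab1 probe set gave -1.33 between the knockouts and 1.29 between the wild types, and an H2-Aa probe set -1.60 and 1.08, without a call. Another H2-Aa probe set was called between the wild types, at 2.21 (adjusted p = 0.000631), and differed by -0.16 between the knockouts. Another H2-Ab1 probe set was also called between the wild types, at 1.88 (adjusted p = 0.00986), with -0.61 between the knockouts. A further H2-Aa probe set was lower in D2 in both genotypes, by -3.13 (adjusted p = 0.00624) and -2.44. The summed signal of the 8 genes was 7084 to 12320 in B6 KO, 4249 to 5736 in D2 KO, 4525 to 4781 in B6 WT and 6597 to 15167 in D2 WT. With the acinar signal as a covariate the adjusted p of H2-Ab1 between the knockouts was 0.105.

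Of 39 interferon-stimulated genes measured, 37 were lower in D2 KO than in B6 KO and 6 were lower in D2 WT than in B6 WT, with medians of -0.66 and 0.54. Over all genes 47.1% were lower in D2 KO and 48.7% in D2 WT. Only Xaf1, a proapoptotic interferon target, was called, beside 3.78% of all genes. Its signals were 149, 422 and 138 in B6 KO and 33.7, 42.3 and 31.7 in D2 KO (log2 difference -2.53, adjusted p = 0.000505), and it was also called between the wild types (-1.93). A second Xaf1 probe set gave the opposite sign, 4.49. The summed signal of the list was 10310, 28329 and 10436 in B6 KO and 10152 to 10999 in D2 KO, so that B6 KO 2 alone was high. In D2 WT it was 23649, 14978 and 15033, all above the B6 WT arrays (11850 to 12616).

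Of 36 crypt stem and proliferating cell genes, 1 was called lower in D2 KO, a share near that of all genes (1.84%). Negative values were found in 31 of the 36, with 47.1% of all genes, and their median was -0.32 against 0.17 between the wild types. Ccna2, cyclin A2, had signals of 330, 395 and 286 in B6 KO and 153, 187 and 164 in D2 KO (2.0-fold lower, standard error 0.17 on the log2 scale, adjusted p = 0.00221), a call that was lost without B6 KO 2 or D2 KO 3 (adjusted p of up to 0.012). None of the 27 acinar genes was called by limma, and 14 had an unadjusted p under 0.05, a level that 21.7% of all genes passed. The median difference of the 27 was -2.85, with D2 KO 1 as high as the B6 KO arrays. Of 14 Paneth cell and antimicrobial genes, 1 was higher (Pla2g2a, described above) and 1 lower in D2 KO, beside 1.95% and 1.84% of all genes. The latter, Ang4, an angiogenin, had signals of 3159, 2701 and 2329 in B6 KO and 1544, 627 and 376 in D2 KO (log2 difference -1.92, standard error 0.39, adjusted p = 0.00857). D2 KO 2 and D2 KO 3 were lowest, as for the acinar genes, and the adjusted p was 0.0687 with the acinar signal as a covariate and up to 0.0416 with single arrays left out, 9 of which ended the call, D2 KO 2 with the highest value.

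**Figure D5:**
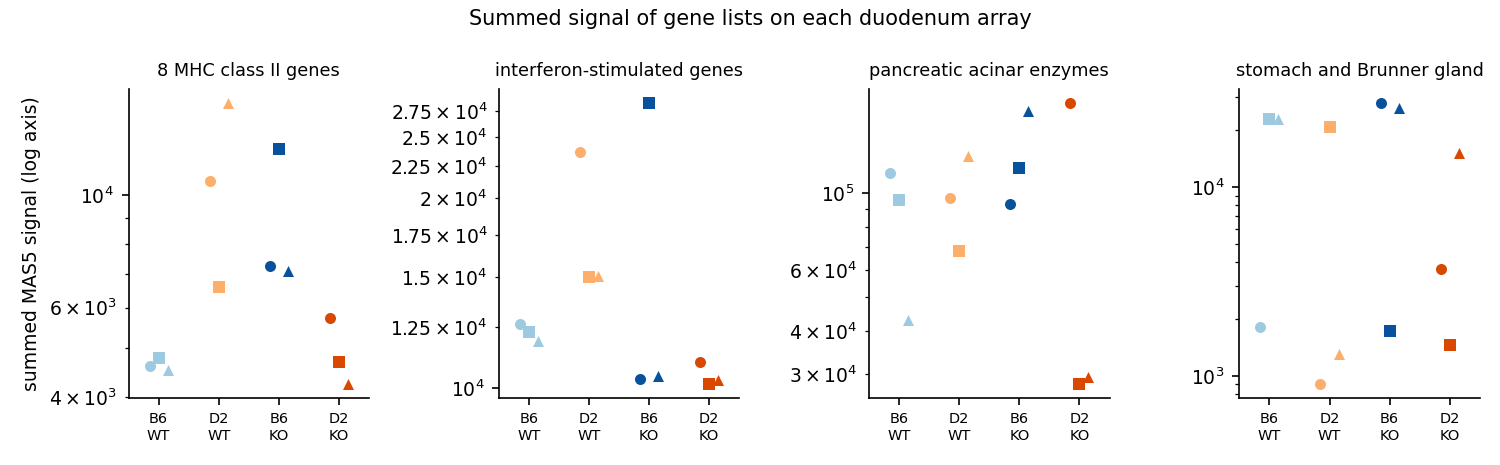
Summed MAS5 signal (log axis) of 4 gene lists on each of the 12 duodenum arrays, by group, with circles, squares and triangles for replicates 1, 2 and 3. The class II sum runs from 4249 to 5736 in D2 KO and from 7084 to 12320 in B6 KO, B6 KO 2 is high for the interferon list, and D2 KO 2 and D2 KO 3 are low for the acinar list.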

How the data were processed

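Total RNA of duodenum had been hybridized to Affymetrix mouse 430 2.0 arrays, 1 array per mouse, 3 mice per group. The deposited intensity values are MAS5 signals (version not given in the sources used here), scaled by the authors to a mean of 100 after the highest and lowest 2% are left out. The table has no detection calls or depth, so precision is limited by 3 arrays per group. Of 45101 probe sets 64 controls were removed, and as many as the study's methods retained were kept by their third-highest signal in either tissue, down to 20.06. Log2 signals of the 12 duodenum arrays, with no pseudocount, were fitted as 4 groups in limma 3.58.1 (lmFit, eBayes with trend) and R 4.3.3, with Benjamini-Hochberg adjustment over the probe sets kept. Liver arrays were fitted in the same way. Standard errors are those of the moderated fit (8 residual and 4.84 prior degrees of freedom). An exact permutation test of 3 against 3 arrays has 10 splits and cannot go below 0.1.

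For each of 12999 genes, the single-symbol probe set of highest mean log2 signal stands for the gene. Probe sets with several symbols (932) name no gene. Of 256 genes called between the knockouts with more than 1 kept probe set, 173 had all of the same sign and 12 had another called with the opposite sign, among them Xaf1. A fold is written "at least" where the lower group's mean was under 20.06, which then replaces it. Named genes were the 12 largest shared differences each way with a signal of at least 100 and without overlap of arrays, genes of the other call classes, up to 6 genes of each list with the smallest adjusted p, and all genes of the iron, heme and allele lists. Others are named as chosen after their values were seen, and so are Efna1, Pdxk, Gsta2 and Fmo2. The members and lists were chosen with earlier results of these data known. Hybridization runs are a grouping made here from the gaps between the hybridization times in the deposited experiment files. Fluidics stations are as those files give them. The acinar covariate was the mean centered log2 signal of the acinar genes on each array. The analysis was tested on simulated data. Whether replicate numbers pair arrays was checked by the correlation of deviations from group means, which was -0.20 to 0.12 for arrays of the same number, so they were not taken as pairs. Positions and promoters are those of RefSeq on GRCm38.p6, with positions matched by Entrez gene ID and promoters by symbol. Alternatives were a pseudocount of 16, quantile normalization, no filter, a signal of at least 100, other thresholds, no trend, only the 6 arrays compared, the mean of a gene's probe sets, replicate, run and station blocks, the acinar covariate and each array left out.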

Additional observations from a re-analysis of the deposited data

Results flagged for a closer look

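The strain difference differed between the genotypes by the interaction test of limma for 4 probe sets, given as the D2 minus B6 difference of the knockouts minus that of the wild types. The value was 2.34 for the Atxn1 probe set, -2.00 for Akr1c19 and 1.22 for Stard3nl. A probe set that carries 3 gene symbols and therefore names no gene had 1.31 (adjusted p = 0.0388). Its signals were 675, 670 and 624 in B6 KO, 960, 1295 and 1361 in D2 KO, 1007, 1234 and 1132 in B6 WT and 784, 849 and 826 in D2 WT, so that the strains were in opposite order in the genotypes. Without single arrays its adjusted p ran from 0.00254 (D2 KO 1) to 0.2 (D2 KO 2), and it was called in 6 of these 12 fits. It missed the call with run (0.321), station (0.693) or both (0.335) as blocks and with no trend (0.221). All 4 lie on chromosome 13. Akr1c19, Stard3nl and the 3 genes of the unnamed probe set lie within 20 Mb of Hfe, and Atxn1 lies 22.1 Mb from it.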

How the results depend on the processing

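With all arrays 1025 probe sets were called between the knockouts, 946 between the wild types and 597 in both, and the interaction called 4, of which 2 were knockout-only and 2 wild-type-only. In the order knockouts, wild types, shared, interaction, knockout-only and wild-type-only, the counts with station as a block were 497, 483, 307, 0, 0 and 0. With run as a block the wild-type, shared, interaction, knockout-only and wild-type-only counts were 104, 101, 1, 0 and 1. With both blocks, chosen after seeing the data, the 6 counts were 104, 92, 64, 1, 1 and 0. Within the second run, also added later, 552 were called between the knockouts. The acinar covariate gave 638 between the knockouts and 1 wild-type-only. Without D2 KO 2 and D2 KO 3, added later, 312 were called between the knockouts, 258 in both and 1 wild-type-only. In the last fit 33% of knockout calls were higher in D2, 38.5% with both blocks and 56.7% within the second run, against 49.1%. An adjusted p of 0.05 gave 2122, 1782 and 1048 calls, with 1 knockout-only and 1 wild-type-only. No trend left 1 interaction, 0 knockout-only and 1 wild-type-only, quantile normalization 1 wild-type-only, and a fit of the 6 arrays compared 616 wild-type calls. The cause of these changes was not tested. With single arrays left out the counts ran from 648 to 1106 for the knockouts, 616 to 974 for the wild types, 455 to 541 shared, 2 to 349 for the interaction, 1 to 172 knockout-only and 1 to 46 wild-type-only. Of the 172, found without D2 KO 1, 27 of 145 with a single symbol were acinar genes. The replicate number as a block gave 847 knockout calls, 826 of them among the 1025, 749 wild-type calls and 5 interactions. The mean of a gene's probe sets called 6 interactions, 4 knockout-only and 2 wild-type-only genes, and turned the sign of Gadd45gip1 (0.29), Pdxdc1 (0.14), Pttg1 (0.050) and Xaf1 (0.98), whose probe sets are then averaged. Signals near 20.06 are poorly measured, and a fold against them is a bound.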

Other observations

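Among 15 immediate early genes, 2 were lower in D2 KO, with 1.84% of all genes. Fos, a transcription factor subunit, had signals of 2206, 2125 and 2214 in B6 KO and 996, 1065 and 1701 in D2 KO (log2 difference -0.84, adjusted p = 0.00949), and Klf4, a factor of epithelial differentiation, had 1985, 1978 and 2033 in B6 KO and 1196, 1558 and 1530 in D2 KO (log2 difference -0.49, adjusted p = 0.00611). Between the wild types Fos differed by -0.76 (adjusted p = 0.0188) and Klf4 by -0.86 (adjusted p = 9.37e-05). The B6 KO arrays of both genes lay close together, but Fos lost its call without any of 10 arrays (adjusted p of up to 0.0521, D2 KO 2) and Klf4 without any of 6 (up to 0.0274, B6 KO 3). Car9, a carbonic anhydrase induced by low oxygen, had signals of 1123, 791 and 1198 in B6 KO and 587, 624 and 591 in D2 KO (log2 difference -0.77, adjusted p = 0.00814), lost without any of 9 arrays (up to 0.0429, B6 KO 3), and -1.34 between the wild types. Ndrg1, another target of the hypoxia pathway, differed in the other direction by 0.67 (adjusted p = 0.00172), lost without B6 KO 3 or D2 KO 2 (up to 0.0115), and by 0.12 between the wild types. These were the only calls among 20 genes of that pathway, beside 3.78% of all genes. Of the 20, 2 had negative values between the knockouts, with 47.1% of all genes, and 11 between the wild types, with 48.7%. Their median differences were 0.16 and -0.009.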
